A study of Mus musculus with 11 samples.

Results

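Ligands and receptors of the vascular endothelial growth factor (VEGF) family were followed through RNA of endothelial ribosomes from mouse brain and from GL261 glioma. The 9 genes, Kdr, Flt1, Flt4, Nrp1, Nrp2, Vegfa, Vegfb, Vegfc and Pgf, were chosen by name as members of this ligand and receptor system, out of 45866 genes listed, and all 9 were among the 15605 genes that passed the filter on low values. Adult C57BL/6 mice were wild type or Eltd1-/-, which lack the endothelial adhesion receptor now named Adgrl4. Cells of the mouse glioma line GL261 were injected into the brain, and dissected tumour and healthy brain were compared in both genotypes. The groups were wild type brain (n = 3), Eltd1-/- brain (n = 3), wild type tumour (n = 3) and Eltd1-/- tumour (n = 2), called knockout brain and knockout tumour hereafter. The mice expressed eGFP-L10a, a tagged ribosomal protein, from the VE-cadherin promoter, so every library holds RNA bound to ribosomes pulled down through a tag made in endothelial cells. The protocol names 3 mouse samples per group, and the 2 knockout tumour libraries given here were analysed.

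VEGF ligands are secreted dimers that bind receptor tyrosine kinases on endothelial cells and drive vessel sprouting, permeability and survival. Kdr (VEGF receptor 2) is the main signalling receptor for VEGF-A, while Flt1 (VEGF receptor 1) binds VEGF-A, VEGF-B and placental growth factor tightly, signals weakly and can act as a trap for ligand. Flt4 (VEGF receptor 3) is the receptor of VEGF-C, and the neuropilins Nrp1 and Nrp2 are co-receptors that also bind class 3 semaphorins. In glioma, VEGF-A made by tumour cells under low oxygen is known for the leaky, disordered vessels of the tumour.

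Promoters are shown for the 4 members that differed between tumour and brain in the comparison over both genotypes described below: Flt1, Nrp1 and Nrp2, which were lower in tumour, and Pgf, which was higher. Each sequence is the 250 bases before a RefSeq transcript start in GRCm38.p6, written 5′ to 3′ on the strand of the gene. The Flt1, Nrp1 and Pgf windows lie inside the annotated gene, whose span begins further upstream than the transcript used. Capitals mark GGAA or its reverse complement TTCC, the core of sites bound by ETS factors, a family that is central to endothelial transcription. Flt1 lies on the minus strand (chr5:147726012-147726261), Nrp1 on the plus strand (chr8:128358823-128359072), Nrp2 on the plus strand (chr1:62703067-62703316) and Pgf on the minus strand (chr12:85177314-85177563).
Flt1: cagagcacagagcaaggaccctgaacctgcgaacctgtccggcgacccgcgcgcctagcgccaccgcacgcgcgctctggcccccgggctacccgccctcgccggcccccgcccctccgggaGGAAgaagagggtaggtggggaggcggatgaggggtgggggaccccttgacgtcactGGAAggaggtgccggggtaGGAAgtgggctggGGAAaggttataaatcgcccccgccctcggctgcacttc
Nrp1: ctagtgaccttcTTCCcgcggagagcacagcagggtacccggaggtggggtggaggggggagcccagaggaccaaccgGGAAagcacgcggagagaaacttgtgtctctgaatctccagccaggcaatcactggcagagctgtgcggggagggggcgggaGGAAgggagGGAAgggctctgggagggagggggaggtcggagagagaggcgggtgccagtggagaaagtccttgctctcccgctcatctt
Nrp2: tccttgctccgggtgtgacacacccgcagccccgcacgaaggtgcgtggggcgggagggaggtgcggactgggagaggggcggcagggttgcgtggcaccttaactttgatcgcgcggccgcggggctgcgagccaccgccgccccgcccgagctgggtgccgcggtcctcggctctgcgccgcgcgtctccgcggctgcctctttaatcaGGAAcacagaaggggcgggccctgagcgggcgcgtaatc
Pgf: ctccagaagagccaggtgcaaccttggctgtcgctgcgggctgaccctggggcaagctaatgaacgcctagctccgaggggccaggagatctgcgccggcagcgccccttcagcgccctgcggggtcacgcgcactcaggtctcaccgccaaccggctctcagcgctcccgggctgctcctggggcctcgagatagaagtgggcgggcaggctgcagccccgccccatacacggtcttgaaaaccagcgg

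The ETS core occurred 4 times in the Flt1 window, 4 times in the Nrp1 window, 1 time in the Nrp2 window and 0 times in the Pgf window, on either strand and without overlaps. Among the windows of the other members, Vegfa held 6, Kdr 4, Flt4 2, and Vegfb and Vegfc 1 each. At least 1 match occurred in 93.4% of all 32851 promoter windows of this length, with a median of 3 per window, so a match is common. ACGTG or its reverse complement CACGT, the core of sites bound by hypoxia-inducible factors, occurred in 0 of the 9 windows and in 16.6% of all windows. These are letter matches in a short window and no record of binding.

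Adgrl4, the targeted gene, was read first as a check of the genotype labels. It measured 166, 82.7 and 153 FPKM (fragments scaled by transcript length and by library size) in wild type brain and 45.0, 192 and 27.4 FPKM in wild type tumour. In knockout brain it measured 21.6, 23.6 and 22.2 FPKM, and in knockout tumour 11.5 and 5.82 FPKM. Every knockout library was below every wild type library, although no knockout library was at 0, and the difference did not pass limma's test over all genes (adjusted p = 0.310 for the mean of both tissues). The labels do not say which part of the gene was disrupted.

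The libraries carried the labelled endothelial identity together with RNA of other cells. Summed over 19 pan-endothelial markers, the level was 1601 to 2241 FPKM in the 6 brain libraries and 466 to 1151 FPKM in the 5 tumour libraries, and none of the 19 was at 0 in a whole group. Summed over 10 neuron markers it was 4664 to 6379 FPKM in brain and 97.7 to 2888 FPKM in tumour, the highest tumour value being that of wild type tumour replicate 3. For 9 astrocyte markers it was 946 to 1611 FPKM in brain and 282 to 730 FPKM in tumour. For 9 oligodendrocyte markers it was 863 to 1124 FPKM in brain and 280 to 873 FPKM in tumour, with a small overlap. Summed over 14 microglia and macrophage markers it was 43.3 to 70.3 FPKM in brain and 155 to 465 FPKM in tumour. Wild type tumour replicate 2 stood apart, with 25.4% of the 10904 genes of mean FPKM of at least 5 listed at 0, against 0.945% to 9.78% in the other libraries. An exact 0 may therefore be a failed estimate. The part of these marker and library differences in the results was not tested, and in such libraries fewer endothelial cells and less RNA per cell cannot be told apart.

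Flt1 showed the clearest difference between tumour and brain among the 9 members. Its transcript, from a gene at 147561604 to 147726438 on chromosome 5 (minus strand), measured 142, 69.7 and 102 FPKM in wild type brain and 144, 141 and 98.2 FPKM in knockout brain. In wild type tumour it measured 10.9, 18.5 and 17.3 FPKM, and in knockout tumour 22.7 and 28.9 FPKM. All 5 tumour libraries lay below all 6 brain libraries, with a gap from 28.9 to 69.7 FPKM. The mean in wild type tumour was 15.6 ± 4.09 FPKM (SD, n = 3) against 104 ± 36.0 FPKM (SD, n = 3) in wild type brain, or 14.9% of the brain level, and in knockout mice the tumour mean was 20.2% of the brain mean. On the scale of log2(FPKM + 1), used for every log2 change below, Flt1 fell by 2.64 in wild type (SE 0.37, adjusted p = 0.00107, limma with Benjamini-Hochberg adjustment over all tested genes) and by 2.25 in knockout (SE 0.41, adjusted p = 0.00828). In the mean of both genotypes it fell by 2.45 (SE 0.28, adjusted p = 0.000116). The knockout call was lost without either knockout tumour library (adjusted p = 0.117 without replicate 1 and 0.0585 without replicate 2), and over all settings its adjusted p ran from 0.000545 to 0.135.

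Of the 9 members, 1 passed in wild type and 1 in knockout, in both cases Flt1, against 19.4% and 7.08% of all tested genes (11.7% and 2.29% were called lower). In the mean of both genotypes 4 of 9 passed, against 30.2% of all tested genes: 3 fell (17.6% of all genes fell) and 1 rose (12.6% of all genes rose). The median log2 change of the members was -0.97 and that of all tested genes -0.25. The mean of both genotypes averages the other contrasts and is not independent of them. By the spread of the libraries alone, Kdr, Flt1, Flt4, Nrp1 and Nrp2 lay below every brain library in wild type tumour (19.8% of all tested genes) and Pgf above (12.7%). In knockout tumour Kdr, Flt1, Nrp1, Vegfb and Vegfc lay below (28.6%) and Pgf above (22%). Over both genotypes Kdr, Flt1 and Nrp1 lay below in all 5 tumour libraries (12.3%).

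**Figure D1:**
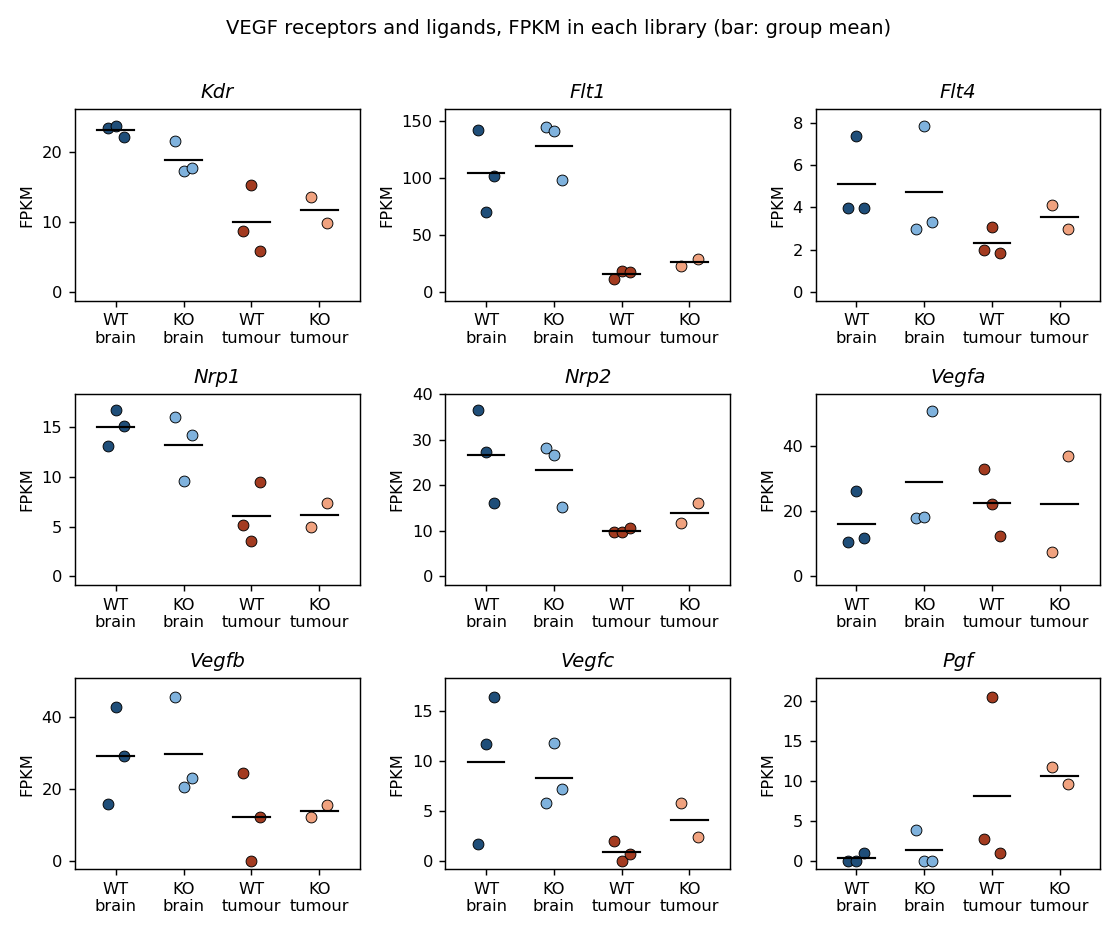
FPKM of the 9 VEGF receptors and ligands in each library: 1 panel per gene, points for single libraries, bars for group means, wild type (WT) and Eltd1 knockout (KO) brain and tumour on the horizontal axis, a linear vertical axis. Kdr, Flt1 and Nrp1 were lower in all 5 tumour libraries than in all 6 brain libraries, Vegfa spanned a like range in both tissues, and Pgf was listed at 0 in 4 of 6 brain libraries.

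Kdr, the main signalling receptor, was lower in every tumour library without passing the test. Its level was narrow in brain, at 23.5, 23.8 and 22.3 FPKM in wild type and 21.6, 17.4 and 17.7 FPKM in knockout. In tumour it was 8.79, 15.4 and 5.90 FPKM in wild type and 13.5 and 9.89 FPKM in knockout, so the highest tumour library (15.4 FPKM) lay just under the lowest brain library (17.4 FPKM). The log2 difference of tumour minus brain was -0.94 in the mean of both genotypes (95% interval -1.66 to -0.22, adjusted p = 0.0503, limma), -1.23 in wild type and -0.66 in knockout. Without wild type tumour replicate 2, the library with most zeros, the mean difference was -1.11 and passed (adjusted p = 0.0131), while over all settings its adjusted p ran from 0.00636 to 0.697.

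Flt4, the receptor of VEGF-C, was the lowest of the 3 receptor kinases in every library. It measured 3.95, 7.38 and 3.95 FPKM in wild type brain and 2.99, 7.85 and 3.32 FPKM in knockout brain. In tumour it measured 1.99, 3.09 and 1.82 FPKM in wild type and 4.10 and 2.99 FPKM in knockout. The groups overlapped in knockout mice and not in wild type, and the mean log2 difference of tumour minus brain was -0.55 (95% interval -1.50 to 0.40, adjusted p = 0.361, limma).

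Flt1 and Kdr did not shift in step, and ratios with Flt4 were not tested. The linear ratio of Flt1 to Kdr within a library was 6.02, 2.93 and 4.58 in wild type brain and 6.68, 8.08 and 5.53 in knockout brain. In tumour it was 1.24, 1.204 and 2.94 in wild type and 1.68 and 2.92 in knockout. On the log2 scale with 1 FPKM added to both, the ratio ranged from 1.51 to 2.94 in brain and from 0.25 to 1.46 in tumour, with no overlap. The mean difference of tumour minus brain within genotype was -1.51, with p = 0.005 in a two-sided exact permutation test, the smallest its 200 arrangements allow, and p = 0.04 after Benjamini-Hochberg adjustment over 8 ratio tests. Leaving out any 1 library ended that call (values -1.70 to -1.32, adjusted exact p 0.08 to 0.133), since fewer libraries allow fewer arrangements.

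As a share of the summed FPKM of Kdr, Flt1 and Flt4, Flt1 made up 77.5% ± 7.55 (SD, n = 3) in wild type brain and 84.2% ± 1.64 (SD, n = 3) in knockout brain. In tumour its share was 56.5% ± 11.0 (SD, n = 3) in wild type and 62.7% ± 9.09 (SD, n = 2) in knockout. The highest tumour share (69.2%) exceeded the lowest brain share (69.1%) by a small margin, in wild type brain replicate 2. The share of Kdr was 10.5% to 23.6% in the brain libraries and 23.5% to 41.6% in the tumour libraries. That of Flt4 was 1.77% to 7.31% in brain and 7.15% to 10.1% in tumour. These shares are values with no test. The summed FPKM of the 3 kinases was 101 to 169 in brain and 21.7 to 41.8 in tumour.

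**Figure D2:**
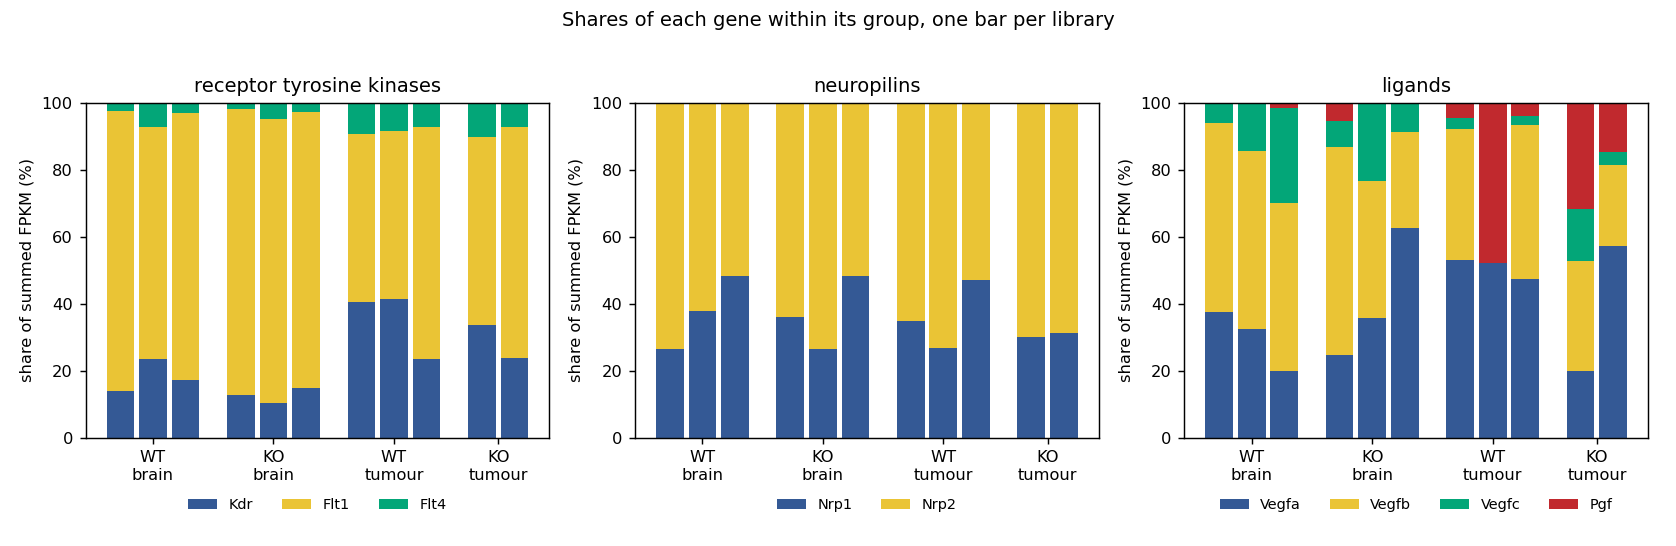
Share of each gene in the summed FPKM of its group, in percent, for the receptor kinases, the neuropilins and the ligands, with 1 stacked bar per library, grouped by genotype (WT, KO) and tissue. Flt1 makes up 69.1% to 85.5% of the receptor kinases in brain and 50.1% to 69.2% in tumour, Nrp2 exceeds Nrp1 in every library, and Pgf takes 3.8% to 47.9% of the ligand sum in tumour. The 47.9% is from wild type tumour replicate 2, the library with most zeros, where Vegfb and Vegfc are listed at 0.

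The co-receptors Nrp1 and Nrp2 fell in tumour in the mean of both genotypes. Nrp1, at 128358591 to 128505476 on chromosome 8 (plus strand), measured 13.2, 16.7 and 15.1 FPKM in wild type brain and 16.0, 9.58 and 14.2 FPKM in knockout brain. In tumour it measured 5.21, 3.58 and 9.50 FPKM in wild type and 5.01 and 7.35 FPKM in knockout. The tissues did not overlap, by a margin of 9.50 to 9.58 FPKM. The log2 level of Nrp1 fell by 1.12 (SE 0.38, adjusted p = 0.0433, limma), and the call was lost without 9 of the 11 libraries in turn (adjusted p 0.00627 to 0.981 over all settings).

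Nrp2, at 62703317 to 62818692 on chromosome 1 (plus strand), was higher than Nrp1 in every library. It measured 36.6, 27.3 and 16.2 FPKM in wild type brain and 28.3, 26.6 and 15.2 FPKM in knockout brain. In tumour it measured 9.72, 9.73 and 10.6 FPKM in wild type, a narrow range, and 11.7 and 16.2 FPKM in knockout. In the mean of both genotypes the log2 level of Nrp2 fell by 0.97 (SE 0.33, adjusted p = 0.0479, limma), and the call was lost without 8 of the 11 libraries in turn (adjusted p 0.0331 to 0.771 over all settings). The log2 ratio of Nrp2 to Nrp1 differed by 0.15 between the tissues (exact permutation p = 0.665, adjusted 0.811), and that of Nrp1 to Kdr by -0.18 (exact permutation p = 0.710, adjusted 0.811).

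The receptors were also compared after shifting each library by its mean log2 level over the 19 pan-endothelial markers, which moves every gene of a library alike. That level was 5.61 ± 0.27 (SD, n = 3) in wild type brain, 5.92 ± 0.21 (SD, n = 3) in knockout brain, 4.37 ± 0.35 (SD, n = 3) in wild type tumour and 4.88 ± 0.17 (SD, n = 2) in knockout tumour. After the shift, Flt1 was still lower in tumour, by -1.31 in the mean of both genotypes (adjusted p = 0.00965, limma), while the knockout value of -1.22 did not pass (adjusted p = 0.135). Nrp1, Nrp2 and Kdr then had log2 differences near 0 (0.02, 0.17 and 0.19), and Flt4 had one of 0.58; none of the 4 passed. The shift also moved the median of all tested genes from -0.25 to 0.88. These receptors lay below that median before and after the shift. Since the shift moves all genes alike, their distance from the median could not change and is no further evidence.

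**Figure D3:**
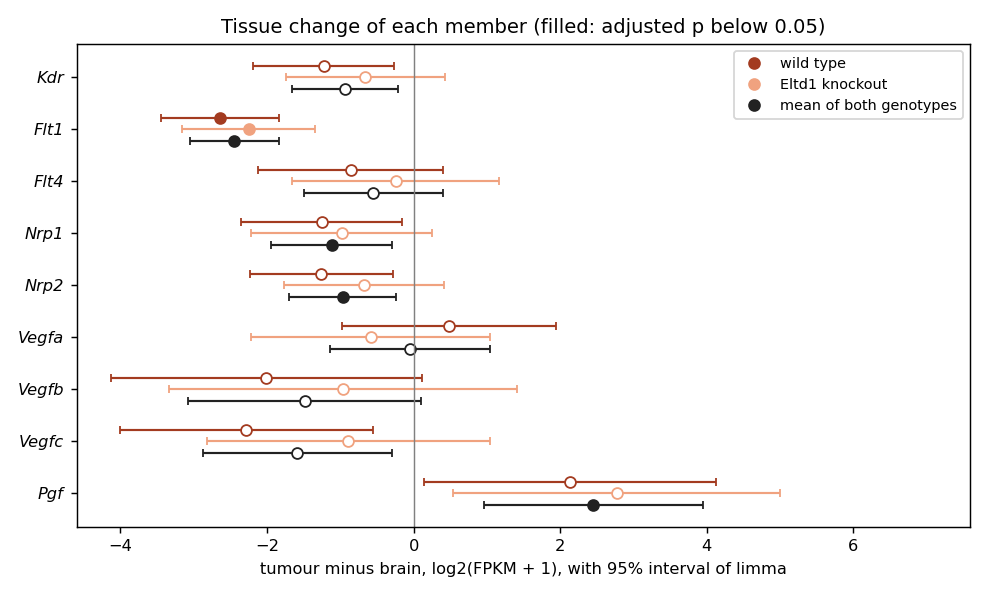
Tumour minus brain difference in log2(FPKM + 1) for each of the 9 members, with 95% intervals from limma, for wild type, for Eltd1 knockout and for the mean of both genotypes; filled points have an adjusted p below 0.05. Flt1 is filled in all 3 comparisons, at -2.64, -2.25 and -2.45; Nrp1, Nrp2 and Pgf are filled in the mean only, where the signs of Nrp1 and Nrp2 turn to 0.02 and 0.17 with endothelial scaling.

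Pgf, a ligand that binds Flt1 and not Kdr, was the only member that rose in tumour. The gene, at 85166637 to 85177785 on chromosome 12 (minus strand), was listed at 0, 0 and 0.914 FPKM in wild type brain and at 3.88, 0 and 0 FPKM in knockout brain. In tumour it was listed at 2.77, 20.5 and 1.01 FPKM in wild type and at 11.7 and 9.53 FPKM in knockout. Within each genotype every tumour library was above every brain library, whereas knockout brain replicate 1 exceeded the wild type tumour replicates 1 and 3. In the mean of both genotypes the log2 level of Pgf rose by 2.45 (SE 0.68, adjusted p = 0.0192, limma), and it did not pass in wild type (2.14, adjusted p = 0.121) or knockout (2.77, adjusted p = 0.122) alone. The call was lost without either knockout tumour library (adjusted p = 0.0722 and 0.0531), over a range of 0.000804 to 0.0722 for all settings. The highest value, 20.5 FPKM, came from the library with most zeros, and without it the rise was 1.96 (adjusted p = 0.0204).

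Vegfa, the ligand of Kdr and Flt1, varied more between libraries of a group than between groups. It measured 10.4, 26.2 and 11.6 FPKM in wild type brain, 18.1, 18.1 and 50.9 FPKM in knockout brain, 32.9, 22.3 and 12.5 FPKM in wild type tumour and 7.36 and 36.9 FPKM in knockout tumour. The mean was 22.4 ± 12.7 FPKM (SD, n = 5) over tumour and 22.6 ± 15.0 FPKM (SD, n = 6) over brain. The log2 difference of tumour minus brain was -0.05 (95% interval -1.14 to 1.04, adjusted p = 0.949, limma), and its sign turned under upper quartile scaling (0.09), quantile normalization (0.12) and endothelial scaling (1.08). The log2 ratio of Pgf to Vegfa ranged from -5.70 to -1.97 in brain and from -3.17 to 0.61 in tumour; the mean difference of 2.505 had an exact permutation p of 0.05 and did not pass after adjustment (0.2).

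Vegfb and Vegfc had lower means in tumour and passed in no tissue comparison under the settings used throughout. Vegfb, a ligand of Flt1, measured 15.7, 42.9 and 29.0 FPKM in wild type brain and 45.7, 20.6 and 23.03 FPKM in knockout brain. In tumour it measured 24.3, 0 and 12.2 FPKM in wild type and 12.2 and 15.6 FPKM in knockout, the 0 being in the library with most zeros. The mean log2 difference was -1.49 (95% interval -3.08 to 0.10, adjusted p = 0.145, limma), and without that library it was -0.79 (adjusted p = 0.14), the smallest change with any single library left out.

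Vegfc, the ligand of Flt4, measured 1.66, 11.7 and 16.4 FPKM in wild type brain, 5.81, 11.8 and 7.15 FPKM in knockout brain, 2.00, 0 and 0.710 FPKM in wild type tumour and 5.78 and 2.42 FPKM in knockout tumour. Wild type brain replicate 1 was the only brain library in the tumour range. The mean log2 difference was -1.58 (95% interval -2.88 to -0.29, adjusted p = 0.0629, limma), and it passed without that library (-2.00, adjusted p = 0.0153), with quantile normalization (-1.51, adjusted p = 0.048) and with library weights (-1.50, adjusted p = 0.0181), over a range of 0.0153 to 0.575 for all settings. The remaining VEGF ligand in the files, Figf (VEGF-D), was listed at 0 in 9 of 11 libraries and at 0.262 and 2.25 FPKM in the others.

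The order of the 9 levels differed between the tissues. Flt1 stood first in wild type brain (104 FPKM) and in knockout brain (128 FPKM), above the next gene, Vegfb (29.2 and 29.8 FPKM), in all 3 libraries of each group and with no overlap of their ranges. In tumour Vegfa (22.6 FPKM) and Flt1 (15.6 FPKM) led in wild type, and Flt1 (25.8 FPKM) and Vegfa (22.1 FPKM) in knockout, with overlapping ranges. Pgf was last in both brain groups (0.305 and 1.29 FPKM) and in place 6 in both tumour groups. In wild type tumour Pgf was above the next gene, Nrp1, in only 1 of 3 libraries, replicate 2 (20.5 FPKM), the library with most zeros. Vegfc was last in wild type tumour (0.903 FPKM) and Flt4 in knockout tumour (3.54 FPKM). Most neighbours in these orders overlapped; besides Flt1 in brain, the ranges stayed apart only for Flt4 above Pgf in wild type brain, Kdr above Nrp1 in knockout brain, Nrp1 above Flt4 in wild type tumour and Pgf above Nrp1 in knockout tumour.

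None of the 9 members passed limma's test between knockout and wild type. The targeted gene Adgrl4 did not pass it either (adjusted p = 0.310 for the mean of both tissues, limma). The count therefore does not show that the members were unaffected. In tumour, brain and the mean of both tissues 0 of 9 passed, and 0 of 9 had an unadjusted p under 0.05, against 0.0192%, 0.00641% and 0.00641% of all tested genes that passed and 3.11%, 4.34% and 3.39% with an unadjusted p under 0.05. Flt1, Nrp2 and Vegfc were higher in both knockout tumour libraries than in all 3 wild type tumour libraries, a pattern shown in that direction by 10.8% of all tested genes; none of the 9 lay below (4.61%). Their log2 differences of knockout minus wild type were 0.72 for Flt1 (95% interval -0.19 to 1.62), 0.42 for Nrp2 (-0.67 to 1.52) and 1.48 for Vegfc (-0.45 to 3.41), each with an adjusted p of 1.00 (limma). That of Nrp2 turned to -0.09 with endothelial scaling. Markers of several cell types differed between the same groups. The mean log2 level of the pan-endothelial markers was 3.97 to 4.59 in wild type tumour and 4.76 to 5.01 in knockout tumour, without overlap. The summed microglia and macrophage level was 155 to 360 FPKM in wild type tumour and 452 to 465 FPKM in knockout tumour. In the same order, mural sums were 18.8 to 59.2 and 71.0 to 75.8 FPKM, and fibroblast sums 17.8 to 35.1 and 60.3 to 62.1 FPKM. Choroid plexus and ependyma sums went the other way, at 11.5 to 88.1 and 2.78 to 2.92 FPKM. The part of any of these in the values of the members was not tested.

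In brain only Kdr separated the genotypes, at 17.4 to 21.6 FPKM in knockout against 22.3 to 23.8 FPKM in wild type, a pattern shown in the lower direction by 3.84% of all tested genes; none of the 9 lay above (4.68%). Its log2 difference was -0.29 (95% interval -1.25 to 0.68, adjusted p = 1.00, limma). The difference between the genotypes in the tumour change was tested directly and passed for 0 of 9 members, with 0 of 9 at an unadjusted p under 0.05, against 0.00641% and 3.17% of all tested genes. It was 0.39 for Flt1 (95% interval -0.82 to 1.60), -1.06 for Vegfa (-3.25 to 1.12) and 1.39 for Vegfc (-1.20 to 3.98). These intervals are wide, with 2 libraries in 1 of the groups, and do not show that the genotypes act alike.

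Signalling genes downstream of the VEGF receptors were called about as often as genes in general, at 30.3% against 30.2% of all tested genes. Of 33 tested genes in a list of 34, 9 fell and 1 rose in the mean of both genotypes, with a median log2 change of -0.38 against -0.25 for all tested genes, and 6 to 11 fell and 0 or 1 rose with a single library left out. Mapk3, the kinase ERK1, fell by 1.18 (SE 0.22, adjusted p = 0.00285, limma), from 106 to 172 FPKM in brain to 40.4 to 68.5 FPKM in tumour, a call lost with upper quartile scaling (adjusted p = 0.0529). Hspb1, a small heat shock protein phosphorylated downstream of p38 kinase, fell by 3.83 (SE 0.72, adjusted p = 0.00285). With endothelial scaling the log2 change was -0.04 for Mapk3, which did not pass, and -2.70 for Hspb1, and the list then counted 2 that fell and 14 that rose. Neuron markers moved with this list (9 of 10 fell), and their part was not tested. In the lists that follow, the share called was 37.5% for receptor partners, 42.1% for VEGF-A response genes, 41.7% for semaphorins and plexins, 57.1% for ligand control, 33.3% for other VEGF and PDGF family genes and 75% for the angiopoietin and Tie axis, on few genes each.

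Among partners that hold or restrain the receptors, 5 of 16 tested fell and 1 rose, with a median log2 change of -0.77. Ptprb, the endothelial phosphatase VE-PTP, measured 40.4 to 65.5 FPKM in brain and 0 to 15.1 FPKM in tumour and fell by 2.88 (SE 0.50, adjusted p = 0.00174, limma). Efnb2, ephrin-B2, which promotes uptake of VEGF receptors, fell by 2.64 (SE 0.50, adjusted p = 0.00312), and Epn1, an endocytic adaptor, by 1.45 (SE 0.36, adjusted p = 0.0111; 0.0643 with upper quartile scaling). Without either knockout tumour library 3 fell and 0 rose. With endothelial scaling only Ptprb of these 3 passed (-1.75, adjusted p = 0.0236), and the list counted 1 that fell and 5 that rose.

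Genes known to respond to VEGF-A moved in both directions. Of 19 tested genes in a list of 20, 5 rose and 3 fell, with a median log2 change of 0.01. Apln, the ligand apelin of sprouting endothelium, measured 1.29 to 6.30 FPKM in brain and 30.1 to 104 FPKM in tumour and rose by 4.06 (SE 0.40, adjusted p = 4.89e-05, limma). Adamts1, a secreted protease, rose by 2.07 (SE 0.44, adjusted p = 0.00542). Egr1, an immediate early transcription factor, fell by 1.98 (SE 0.27, adjusted p = 0.000472), from 37.4 to 52.3 FPKM in brain to 4.14 to 18.5 FPKM in tumour. With endothelial scaling Apln (5.19) and Adamts1 (3.21) still passed, Egr1 (-0.84, adjusted p = 0.0646) did not, and the list counted 10 that rose and 0 that fell.

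Among class 3 semaphorins and plexins, ligands and receptors that meet the VEGF system at the neuropilins, 2 of 12 rose and 3 fell. Sema3c measured 36.5 to 126 FPKM in brain and 0 to 11.6 FPKM in tumour and fell by 3.44 (SE 0.54, adjusted p = 0.000966, limma). Sema3b rose by 2.55 (SE 0.55, adjusted p = 0.00579), and Plxna2, a plexin that pairs with neuropilins, fell by 1.60 (SE 0.36, adjusted p = 0.0069). Without knockout tumour replicate 1 the list counted 1 that rose, and without wild type brain replicate 2 it counted 4. Sema3c and Sema3b kept their calls with endothelial scaling (-2.31 and 3.69), and Plxna2 did not (-0.47, adjusted p = 0.424).

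Of 14 tested genes that control or process VEGF ligands, 3 rose and 5 fell, and the hypoxia factors were called in opposite directions. Epas1, the endothelial hypoxia-inducible factor HIF-2 alpha, measured 206 to 331 FPKM in brain and 57.3 to 87.9 FPKM in tumour and fell by 1.91 (SE 0.21, adjusted p = 8.86e-05, limma). Pcsk5, a proprotein convertase, fell by 1.81 (SE 0.42, adjusted p = 0.00843), and Adamts3, a protease that activates VEGF-C, by 2.04 (SE 0.50, adjusted p = 0.011; 0.0666 without knockout tumour replicate 1). Hif1a, outside the naming rule and chosen after its values were seen, measured 11.9 to 55.0 FPKM in brain and 58.1 to 110 FPKM in tumour and rose by 1.45 (SE 0.37, adjusted p = 0.0129), a call lost without knockout tumour replicate 1 (adjusted p = 0.0703). Without that library the list counted 0 that rose and 3 that fell. With endothelial scaling Epas1 (-0.78, adjusted p = 0.0548), Pcsk5 and Adamts3 no longer passed.

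Related growth factor systems gave a mixed picture. Of 9 tested genes among other VEGF and PDGF family members, 1 rose and 2 fell. Csf1r, a receptor kinase of macrophages and so a marker of those cells here, rose by 1.46 (SE 0.32, adjusted p = 0.00621, limma), while Pdgfb, the endothelial ligand that recruits pericytes, fell by 1.23 (SE 0.30, adjusted p = 0.00957) and Pdgfd by 1.84 (SE 0.48, adjusted p = 0.0145). Pdgfb did not pass without knockout tumour replicate 1 (adjusted p = 0.0595), nor Pdgfd without knockout tumour replicate 2 (adjusted p = 0.0823). Of 4 tested genes of the angiopoietin and Tie axis, Tek, the angiopoietin receptor, fell by 2.61 (SE 0.28, adjusted p = 7.94e-05), Tie1, its partner, by 1.34 (SE 0.32, adjusted p = 0.0088), and Angpt2, a context-dependent antagonist of Tek, rose by 2.71 (SE 0.58, adjusted p = 0.00557). Tek measured 46.7 to 73.3 FPKM in brain and 4.64 to 12.5 FPKM in tumour, and Angpt2 0 to 4.85 FPKM in brain and 4.82 to 19.0 FPKM in tumour. Both kept their calls with endothelial scaling (-1.47 and 3.84), whereas Pdgfb, Pdgfd and Tie1 did not. Tek and Tie1 belong to the pan-endothelial markers that set this scaling, so it is no independent check on them. No gene of any of these lists passed in a genotype comparison (limma).

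**Figure D4:**
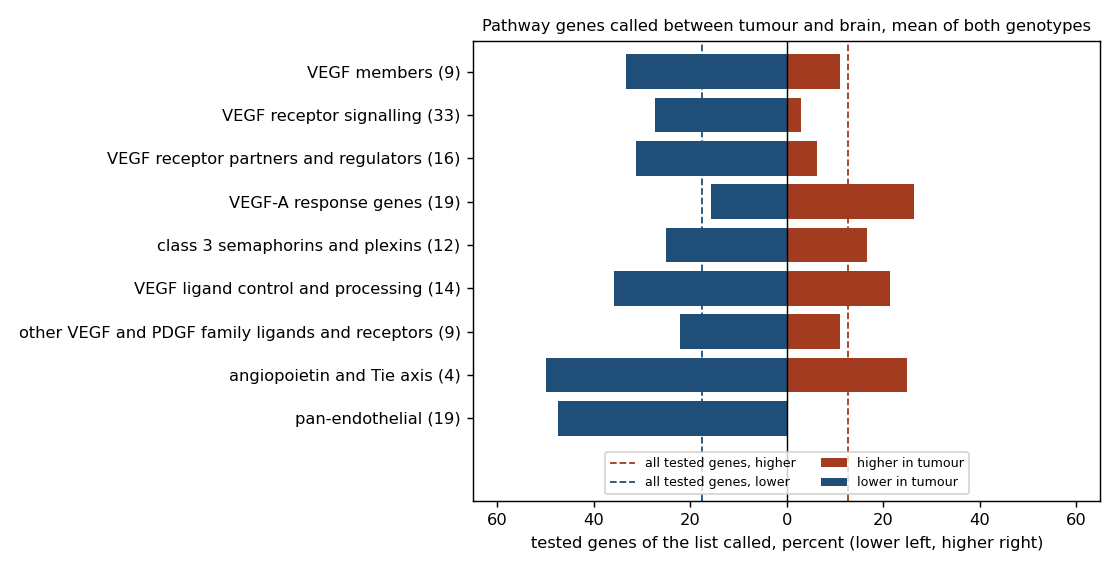
Percent of the tested genes of each list (number tested in brackets) that passed in tumour against brain over both genotypes, lower in tumour to the left and higher to the right; dashed lines give the same percent for all tested genes, 17.6% lower and 12.6% higher. The VEGF-A response genes are the list with most calls to the right (5 of 19). The pan-endothelial markers have calls to the left only (9 of 19, and fewer without either knockout tumour library). The counts shift to the right with endothelial scaling. For the pan-endothelial markers that shift is built in, since the scaling subtracts their own mean.

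The genes with library profiles most like those of 4 members were sought among 10330 genes, by the root mean square difference of log2(FPKM + 1) centred on each gene's mean over the 11 libraries. For Flt1 they were Adgrf5 (0.236), an adhesion receptor of endothelium, Bsg (0.274), the surface protein basigin, Reep5 (0.301), Tmx4 (0.309) and Lmbrd1 (0.346). Adgrf5 measured 38.2 to 69.7 FPKM in brain and 5.95 to 16.5 FPKM in tumour. For Kdr they were Spr (0.184), Polr2m (0.204), Rab11b (0.210), Lhfpl2 (0.214) and Rab18 (0.218). For Nrp1 they were Mapk9 (0.202), Cbr1 (0.208), Prkaca (0.240), Chd3 (0.241) and Ctif (0.244). For Vegfa the nearest genes were farther away: Fmr1 (0.506), Ppid (0.544), Rnf168 (0.564), Stip1 (0.590) and D6Wsu163e (0.597). A gene with no variation would lie at 0.772 from Vegfa, against 1.32 from Flt1, 0.581 from Kdr and 0.652 from Nrp1. No member was among the 5 nearest of Kdr, Flt1, Nrp1 or Vegfa. Flt4 and Pgf, with a mean below 5 FPKM over the 11 libraries, were not among the 10330 genes and could not be. Their places are set by how many of the 10330 were nearer. By distance from Kdr, Flt4 was in place 352, Nrp2 in 392, Nrp1 in 1111 and Flt1 in 3780 (0.913). The ligands were in places 4583 to 9262. By distance from Flt1, Kdr was in place 1275. These distances grow with a gene's own variation, which was larger for Flt1 than for Kdr.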

How the data were processed

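Ribosome-bound RNA was sequenced in 11 libraries, per the labels' protocols after ribosomal RNA depletion and with a stranded kit. The authors deposited FPKM per gene, per the file headers. The submitters' processing notes name GRCm38, Cufflinks 2.2.1 and TopHat2 2.1.1; roles, annotation and use of strand were not given in the sources used here, and overlapping and antisense genes are uncertain. Each file listed 46073 entries; 396 entries of 189 repeated symbols were summed, leaving 45866 genes. Low values held no steps of whole reads (at most 1.29% of low genes shared a ratio in any of 55 library pairs), so depth is unknown and no counting interval is given.

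The 15605 genes that reached 1 FPKM in 2 or more libraries were tested on log2(FPKM + 1), which understates changes of low genes. Limma 3.58.1 in R 4.3.3 fitted 4 group means to 11 libraries (7 residual degrees of freedom, eBayes with a variance trend, two-sided, Benjamini-Hochberg per contrast, threshold 0.05) in 7 contrasts. It was tested on simulated data. Ratios of members used exact permutation within genotype or tissue. Replicates are separate mouse samples; their numbers are names in accession order and pair nothing. RefSeq tables of GRCm38.p6 held all 9 members and gave positions and promoters; no protein sequence was used.

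The members and lists were chosen with earlier results of these data known. Named were all 9 members, Adgrl4, up to 3 genes per pathway list by smallest p among those that passed in the mean tissue contrast, list genes passing in a genotype contrast, and the 5 nearest profiles of Kdr, Flt1, Nrp1 and Vegfa among genes with a mean FPKM of at least 5, without predicted, clone-named, pseudogene or mitochondrial symbols. One gene that this rule names is not reported here. Alternatives were pseudocounts of 0.1 and 0.5, no filter or 5 FPKM, upper quartile scaling, quantile normalization, endothelial scaling, no or a robust trend, library weights, fits to the compared groups only, the highest of repeated entries, each library left out, and wild type tumour replicates 2 and 3 left out together.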

Additional observations from a re-analysis of the deposited data

How the results depend on the processing

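Flt1 passed under all 24 alternatives in wild type and all 23 in the mean of both genotypes, and it was negative in knockout throughout. The number of members that passed in wild type, 1, became 2 with endothelial scaling and 4 with library weights, and 1 to 3 with a library left out. In knockout, 1 became 2 with library weights and 2 without wild type tumour replicates 2 and 3, and 0 to 2 with a library left out. In the mean of both genotypes, 4 became 2 with a pseudocount of 0.1, 2 with upper quartile scaling, 2 with endothelial scaling, 3 with a pseudocount of 0.5, quantile normalization or a robust trend, 5 with no filter or one of 5 FPKM, and 6 with library weights or no variance trend, and 1 to 5 with a library left out. The genotype contrasts and the difference of genotype effects gave 0 throughout. The causes were not tested.

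Endothelial scaling turned Kdr to 0.011 and Flt4 to 0.38 in wild type. In knockout it turned Kdr to 0.38, Flt4 to 0.79, Nrp1 to 0.051, Nrp2 to 0.36, Vegfa to 0.45, Vegfb to 0.068 and Vegfc to 0.14. In the mean it turned Kdr to 0.19, Flt4 to 0.58, Nrp1 to 0.017, Nrp2 to 0.17 and Vegfa to 1.08, and for knockout against wild type in tumour Nrp2 to -0.093. None of these passed. Vegfa in the mean also became 0.089 with upper quartile scaling, 0.12 with quantile normalization, 0.14 with library weights and 0.26 without wild type tumour replicates 2 and 3. With single libraries left out, Flt4 in knockout ranged from -0.46 to 0.12, Vegfa in knockout from -1.67 to 0.51 and Vegfa in the mean from -0.60 to 0.49. The Flt1 to Kdr ratio ranged from -1.70 to -1.32 and was -1.69 without wild type tumour replicates 2 and 3, with too few arrangements to pass. Ratios of Nrp1 to Kdr ranged from -0.49 to 0.13 between tissues and from -0.35 to 0.26 between genotypes, Nrp2 to Nrp1 between tissues from -0.014 to 0.32, and Pgf to Vegfa between genotypes from -0.069 to 1.16.

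Among all tested genes, the share of calls that were higher in wild type tumour was 39.7%, and 51.2% with upper quartile scaling, 52.2% with quantile normalization and 94.9% with endothelial scaling. Depth is unknown, zeros may be failed estimates, and 2 knockout tumour libraries limit the knockout comparisons, where a lone remaining library takes its spread from the other groups.

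No paired analysis was possible because the labels number the samples once through the series, and the replicate numbers within groups are names in accession order that pair nothing.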
